A study of Rattus norvegicus with 24 samples.

Results

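The genes described here encode the mitochondrial ribosomal proteins, the proteins of the ribosome inside mitochondria. They were taken by symbol, as Mrpl or Mrps followed by a number and at most 1 letter. The rule itself uses no expression value, but the family was chosen with earlier results of these data known. The rule took 97 probe sets of 73 genes on a rat expression array, among 31042 probe sets tested and 14217 genes with a symbol. The 97 probe sets comprised 37 of 25 genes of the small subunit and 60 of 48 genes of the large subunit. Of the 73 genes, 55 had 1 probe set and 18 had several. The genes Mrpl9, Mrpl11, Mrpl24, Mrps10 and Mrps36 are not listed under these symbols in the probe table used here and were not analysed.

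RNA came from hypothalamic blocks of 18 male Wistar rats aged 7 weeks, 1 array per rat, in 3 groups of 6. Controls were neither restrained nor given the odour, the stress group was held in wire mesh cages for 2 h, and the linalool group had the same restraint in a 40 L box into which 20 µL of (R,S)-linalool, a fragrant monoterpene alcohol of lavender oil, had been evaporated. The design has no group that inhaled linalool without restraint, and all rats were killed directly after the exposure. The authors normalised controls with the stress group as a first set and the same 6 stress rats with the linalool group as a second set, so stress was compared with control in the first set and linalool under stress with stress alone in the second. The same 6 stress rats therefore enter both comparisons.

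Mitochondria carry their own small genome, and the proteins it encodes are core subunits of the respiratory chain and the ATP synthase. They are made on the mitochondrial ribosome, whose RNAs come from the mitochondrial genome and whose proteins all come from nuclear genes, are made in the cytosol and are imported. Some of these proteins descend from bacterial ribosomal proteins and others are specific to mitochondria. Neurons depend on oxidative phosphorylation for most of their ATP.

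The deposited values are log2 signals, and those of the members ran within the 5.59 to 14.93 of the whole table. On this scale the SD between rats ranged from far under 0.01 for most probe sets to much larger values for others. A difference is therefore given in residual SDs, that is, the difference of the 2 group means divided by the within-group SD of that probe set. For n = 6 against 6 such a difference has a standard error of 0.577 if that SD is taken as known. The error of the SD itself adds to this, most for the largest differences. A probe set whose residual SD was under 0.01 is called compressed, and no log2 difference is given for it singly. In such a probe set a large difference in residual SDs goes with a very small difference in log2 signal. Residual SDs therefore do not rank probe sets by the size of the change in signal. A probe set counts as higher or lower where limma's test, adjusted by the Benjamini-Hochberg method over all 31042 probe sets, gave an adjusted p under 0.05.

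On the deposited scale, most mitochondrial ribosomal protein transcripts were higher in rats that inhaled linalool under restraint than in rats under restraint alone. Of the 97 probe sets, 55 were higher and 4 were lower, while the other 38 did not pass. Of the 55, 30 are compressed. The log2 differences of all 67 compressed members ran only from -0.00046 to 0.0179, with a median of 0.000158. Over the 30 members not compressed the median was 0.179. Over the whole array 14.2% of probe sets were higher and 10.8% lower, against 56.7% and 4.12% of the members. The median difference was 1.86 residual SDs over the members (quartiles 0.741 and 2.81) and -0.0136 over all probe sets. By gene, 46 of 73 had at least 1 probe set higher and none lower, 4 had 1 lower and none higher, and 23 had none past the threshold. Both rescalings tried moved these counts. After quantile normalisation 25 members were higher and 0 lower, beside 4.92% higher over all probe sets, and 23 of the 25 were among the 55; the median was 0.757 residual SDs over the members and 0.536 over all probe sets. After centring each array on its median 93 members were higher and 0 lower, beside 88.7% over all probe sets, and the medians were 1.54 and 1.48; the share of all calls that were higher went from 56.7% to 94.9%. In a tissue block, fewer or more cells of a type and less or more RNA per cell cannot be told apart.

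**Figure D1:**
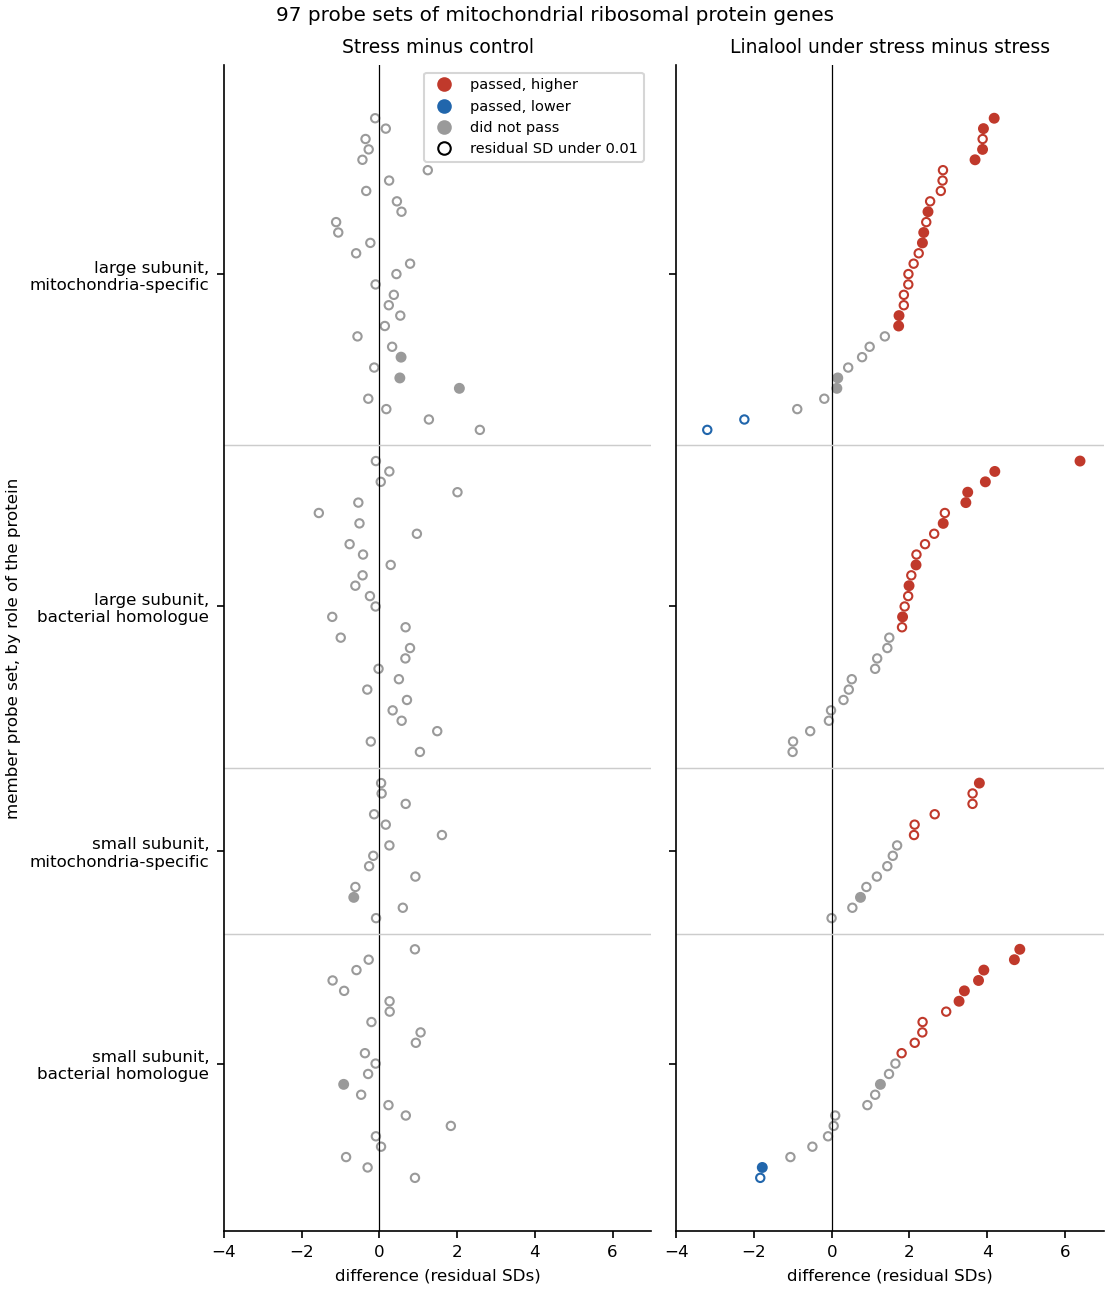
Difference in residual SDs for each of the 97 member probe sets (1 point each), grouped by the role of the protein, for stress against control and for linalool under stress against stress alone. No point passed the threshold in the first comparison, while 55 passed as higher and 4 as lower in the second, the 4 not under rescaling.

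The gene with the smallest p was Mrpl27, a large subunit protein whose bacterial counterpart reaches the site of peptide bond formation. Its log2 signal (probe set 1399047_at) had a lowest, median and highest value of 10.21, 10.30 and 10.44 in the stress rats and of 10.64, 10.70 and 10.78 in the linalool rats. All 6 linalool rats lay above all 6 stress rats. The mean rose from 10.30 ± 0.0765 to 10.70 ± 0.0448 (SD, n = 6 each), a log2 difference of 0.40 (SE 0.0362, limma adjusted p = 0.000111) and of 6.39 residual SDs, the highest among the members.

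Mrps18c, one of 3 mitochondrial homologues of bacterial S18 and the one in the small subunit at the bacterial position, followed. In probe set 1379378_at its lowest, median and highest log2 signal were 7.92, 8.08 and 8.18 in stress rats and 8.39, 8.41 and 8.47 in linalool rats. The groups did not overlap, and the log2 difference was 0.35 (SE 0.0416, limma adjusted p = 0.000354). A second Mrps18c probe set, 1380447_a_at, rose by 0.32 (SE 0.0398, limma adjusted p = 0.000408), also without overlap. The remaining one, 1382418_at, is compressed and had the lowest level, with a mean of 6.73 in both groups, and differed by -0.497 residual SDs (limma adjusted p = 0.567).

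Mrpl12 encodes the stalk protein of the large subunit, to which translation factors bind. Its log2 signal in 1372431_at ran from 9.69 to 9.85 with a median of 9.75 in stress rats and from 9.93 to 10.04 with a median of 9.99 in linalool rats. Again the groups did not overlap, and the log2 difference was 0.22 (SE 0.0308, limma adjusted p = 0.000721). The other Mrpl12 probe set, 1396444_at, differed by -0.0714 residual SDs (limma adjusted p = 0.941), so the 2 probe sets of this gene gave different calls.

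**Figure D2:**
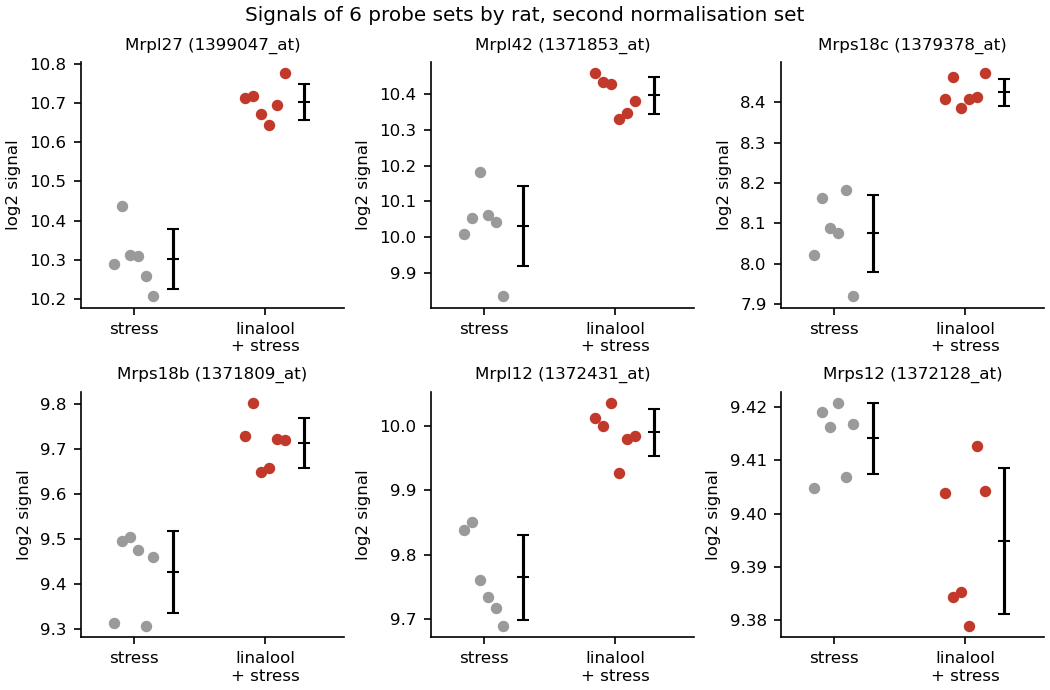
Log2 signal of 6 member probe sets in each stress rat and each linalool rat of the second set, with the mean and SD of each group beside the points. In Mrpl27, Mrpl42, Mrps18c, Mrps18b and Mrpl12 every linalool rat lies above every stress rat, and in Mrps12 the groups overlap.

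The promoters of these 3 genes are shown because they carry the members with the smallest p that have a promoter entry, and because so many members moved in 1 direction. Each is the stretch of 250 bases before the RefSeq transcription start in the assembly GRCr8, written 5′ to 3′ on the strand of the gene. Capitals mark matches, on either strand, to 5 short motifs: GCGCA followed by any base and then GCGC (NRF-1), CCGGAAG (the ETS family with GABP, also called NRF-2), AAGATGGC (YY1), CCAAT (NF-Y) and GGGCGG (Sp family).
Mrpl27 (chr10:80092095-80092344, plus strand): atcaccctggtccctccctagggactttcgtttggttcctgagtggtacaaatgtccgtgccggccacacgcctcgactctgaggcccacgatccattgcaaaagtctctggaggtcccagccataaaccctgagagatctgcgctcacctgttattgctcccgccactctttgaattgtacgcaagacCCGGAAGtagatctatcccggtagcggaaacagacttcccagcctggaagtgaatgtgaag
Mrps18c (chr14:9122907-9123156, minus strand): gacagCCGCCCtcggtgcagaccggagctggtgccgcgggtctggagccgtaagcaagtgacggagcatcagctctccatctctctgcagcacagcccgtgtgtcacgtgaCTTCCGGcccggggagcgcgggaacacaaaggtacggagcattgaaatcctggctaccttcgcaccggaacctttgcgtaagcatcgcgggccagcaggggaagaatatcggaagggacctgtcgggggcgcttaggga
Mrpl12 (chr10:106256496-106256745, plus strand): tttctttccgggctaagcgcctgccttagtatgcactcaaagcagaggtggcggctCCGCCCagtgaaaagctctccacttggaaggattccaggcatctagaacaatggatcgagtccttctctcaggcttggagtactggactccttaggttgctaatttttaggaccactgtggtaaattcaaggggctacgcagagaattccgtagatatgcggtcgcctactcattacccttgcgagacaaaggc
The Mrpl27 stretch holds 1 match, to the ETS motif, whose first base lies 61 bases before the start. That of Mrps18c holds an ETS match 139 bases and an Sp match 245 bases before the start, both on the other strand. That of Mrpl12 holds 1 Sp match, 194 bases before the start, also on the other strand.

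NRF-1 and the ETS factor GABP are known regulators of nuclear genes for mitochondrial proteins. Windows of 300 bases, from 250 before to 50 after the start, were found for 59 of the 73 genes (61 windows) and compared with 21851 windows of protein-coding genes. The YY1 motif was in 23.0% of the member windows and in 3.67% of the coding windows, and the ETS motif in 32.8% and 10.7%. The NRF-1 motif was in 14.8% and 5.67%, the Sp motif in 49.2% and 41.8%, and the NF-Y motif in 44.3% and 38.0%. Over all 33469 windows, non-coding genes included, the shares were 3.17% for YY1, 8.75% for ETS, 4.25% for NRF-1, 33.1% for Sp and 37.5% for NF-Y. Among the members, the ETS motif was in 15 of the 40 windows of genes higher with linalool and in 5 of the other 21 windows, and the YY1 motif in 8 and 6. The NRF-1 motif was in 6 and 3, the NF-Y motif in 16 and 11, and the Sp motif in 19 and 11. These shares were not tested, and a match is a run of letters, not a site shown to be bound. No binding was measured.

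Among the small subunit proteins with a bacterial homologue, 11 of 23 probe sets were higher and 2 lower with linalool (median 1.64 residual SDs). Besides Mrps18c, both probe sets of Mrps14 were higher. Mrps14 1383090_at ran from 9.73 to 9.85 (median 9.78) in stress rats and from 9.91 to 10.04 (median 9.96) in linalool rats, without overlap, and rose by 0.18 (SE 0.0264, limma adjusted p = 0.00103). Mrps21 rose by 0.18 (limma adjusted p = 0.00124) and Mrps17 by 0.35 (limma adjusted p = 0.00207). Both Mrps15 probe sets, which are compressed, were higher, by 2.14 and 2.33 residual SDs, with limma adjusted p of 0.0208 and 0.0138.

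The lower calls of this group lay near the threshold, and neither held after the arrays were rescaled. Mrps12, homologue of the bacterial S12 at the decoding centre, had log2 signals from 9.40 to 9.42 (median 9.42) in stress rats and from 9.38 to 9.41 (median 9.39) in linalool rats. The groups overlapped, and the log2 difference was -0.02 (SE 0.00621, limma adjusted p = 0.0416). Mrps2, compressed in all 3 probe sets, was lower in 1, at -1.84 residual SDs in 1372116_at (limma adjusted p = 0.0404), again with overlap. Its other probe sets differed by -0.0942 and 0.0898. Of 12 fits that each left out 1 rat, 7 lost the call of Mrps12 and 8 that of Mrps2.

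Among the small subunit proteins specific to mitochondria, 6 of 14 probe sets were higher and none lower (median 1.63 residual SDs). Mrps18b, the second S18 homologue, had log2 signals from 9.31 to 9.50 (median 9.47) in stress rats and from 9.65 to 9.80 (median 9.72) in linalool rats. No values overlapped, and the log2 difference was 0.29 (SE 0.0436, limma adjusted p = 0.0012). Mrps23 was higher by 3.63 residual SDs (limma adjusted p = 0.00164) and 2 of 3 Mrps27 probe sets passed, at 3.62 and 2.12. All of these are compressed. Mrps35, one of the few members with a wide spread in both sets, differed by 0.12 without passing (limma adjusted p = 0.374).

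In the large subunit, 17 of 29 probe sets of proteins with a bacterial homologue were higher and none lower (median 1.88 residual SDs). Mrpl19 ran from 8.73 to 8.83 (median 8.79) in stress rats and from 8.89 to 9.03 (median 8.97) in linalool rats. The groups did not overlap, and the log2 difference was 0.17 (SE 0.0253, limma adjusted p = 0.00098). Mrpl36, whose protein is among the shortest of the ribosome, rose by 0.35 (limma adjusted p = 0.00182), Mrpl16 by 0.12 (0.00195) and Mrpl23 by 0.18 (0.00498). Mrpl3, a protein that reaches towards the peptidyl transferase centre, is compressed. It was higher by 2.40 residual SDs (limma adjusted p = 0.0132), with overlap between the groups. Mrpl10, which anchors the Mrpl12 stalk, did not pass in either probe set, at -0.553 and -0.0175 residual SDs.

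Large subunit proteins specific to mitochondria had the highest share of the 4 role groups of members, with 21 of 31 probe sets higher and 2 lower (median 1.97 residual SDs). Mrpl42 ran from 9.84 to 10.18 (median 10.05) in stress rats and from 10.33 to 10.46 (median 10.40) in linalool rats, without overlap. Its log2 difference was 0.36 (SE 0.0503, limma adjusted p = 0.000738). Mrpl40 1374931_at ran from 7.93 to 8.10 (median 7.97) and from 8.15 to 8.34 (median 8.22), also without overlap, and rose by 0.25 (SE 0.0365, limma adjusted p = 0.00104). Both probe sets of Mrpl50 rose, by 0.35 and 0.34 (limma adjusted p = 0.00107 and 0.0014). All 4 probe sets of Mrpl51 were higher, by 1.73 to 2.53 residual SDs. All but 1390509_a_at, which rose by 0.10, are compressed.

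Mrpl58, a peptidyl-tRNA hydrolase built into the large subunit that can release stalled ribosomes, is compressed. Its stress rats reached at most 0.701 and its linalool rats lay at 2.13 to 5.17 residual SDs from the stress mean, so the groups did not overlap. The difference was 3.88 residual SDs (limma adjusted p = 0.00128), with a mean log2 signal of 9.49 in both groups. Mrps30, which carries a small subunit name but sits in the large subunit, is also compressed. It was higher by 2.24 residual SDs (limma adjusted p = 0.0164). Mrps18a, the S18 homologue of the large subunit, differed by 0.04 on the log2 scale (SE 0.0145, limma adjusted p = 0.0479), with overlap, and its call was lost in 9 of the 12 fits that left out 1 rat.

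The lower call with the smallest p was Mrpl38, which is compressed, at -3.20 residual SDs (limma adjusted p = 0.00317). This sign turned under both rescalings. Its stress rats lay at -1.13 to 1.28 and its linalool rats at -4.98 to -1.99 residual SDs from the stress mean, with no overlap. Mrpl37, compressed in all its probe sets, was lower in 1386606_at alone, at -2.25 residual SDs (limma adjusted p = 0.0164, with overlap). Its other probe sets differed by -0.886 and -0.191. None of the 4 lower calls of the members held: after quantile normalisation Mrpl38, Mrpl37 and Mrps2 stood at 1.07, 1.79 and 0.0125 residual SDs without passing, and Mrps12 at -1.67 (limma adjusted p = 0.0725).

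Of the whole subunits, 17 of 37 small subunit probe sets (45.9%) and 38 of 60 large subunit probe sets (63.3%) were higher. The medians were 1.64 and 1.97 residual SDs, and the difference between the subunits was not tested. Of the 18 genes with several probe sets, 5 had all of them higher (Mrpl40, Mrpl50, Mrpl51, Mrps14 and Mrps15), 8 had some higher and some without a call, and 3 had none (Mrpl10, Mrps24 and Mrps26). Mrpl37 and Mrps2 had 1 of 3 lower, and no gene had probe sets past the threshold in opposite directions.

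The 2 groups did not overlap in 31 of 97 members, 30 higher and 1 lower, where 11.9% of all probe sets did not overlap (7.56% higher, 4.36% lower). Of the members, linalool rats 1 to 6 had 86, 79, 75, 74, 80 and 85 above the mean of the stress rats, and 66, 60, 50, 44, 59 and 65 above every stress rat. Every linalool rat thus had most members above the stress mean. Linalool rats 3 and 4 had the fewest. In stress against control, where no member passed, stress rats 1 to 6 had 54, 83, 50, 44, 52 and 29 above the control mean. They had 10, 41, 10, 14, 16 and 11 above every control, so stress rat 2 alone had most members above the controls' mean by a wide margin. Such counts per rat were not made over all probe sets.

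The mean over the members of each array's deviation, in residual SDs, gives a score per rat. In the second set the 6 stress rats scored -0.903, 0.105, -1.04, -1.01, -0.743 and -1.60, and the 6 linalool rats 1.30, 0.994, 0.472, 0.342, 0.978 and 1.10. The lowest linalool rat lay above the highest stress rat, stress rat 2. The same score over all probe sets stayed within -0.185 and 0.128 for every array of both sets. Stress rat 2 was the highest of the 6 stress rats in 55 of 97 members, and stress rat 6 was the lowest in 45. The mean deviation of the bacterial and phage array controls, RNAs that rats do not make, was also highest of the stress group in stress rat 2 (0.653). It was 0.143, 0.976 and 0.810 in linalool rats 1, 2 and 6 and -0.336, -0.211 and -0.0205 in rats 3, 4 and 5, which had the lower member scores of their group. In stress rat 6 it was -0.247, above 3 of the other stress rats. The part of these controls in the differences between rats was not tested.

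Members moved together between rats of the same group as well. For each of the 73 genes the probe set with the highest mean signal was taken. Over deviations from the group means of 12 arrays, their mean pairwise correlation was 0.301 for the second set and 0.278 for the first. Of the pairs, 82% and 79.4% were above 0, where all probe sets gave a mean of 0.00234 and 0.00376. These correlations are across 12 arrays that share their normalisation and are given as a description.

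**Figure D3:**
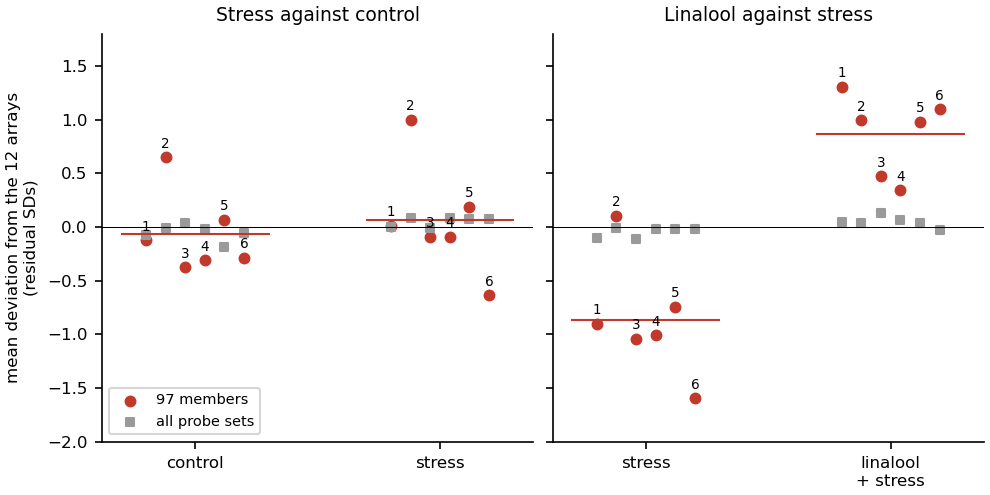
Mean deviation of the members on each array, in residual SDs from the 12 arrays of its set, beside the same mean over all probe sets. Linalool rats scored 0.342 to 1.30 and stress rats -1.60 to 0.105 in the second set, while control and stress rats overlapped in the first.

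Restraint alone gave no member past the threshold. In this set 92 of the 97 members were compressed, against 67 in the second set. Counts of the 2 comparisons are therefore not on the same scale. Of all probe sets, 172 (0.554%) passed in stress against control (0.341% higher, 0.213% lower), against 0 of 97 members. The median difference was 0.0428 residual SDs (quartiles -0.339 and 0.570), with 50 members above and 47 below 0, beside a median of 0.120 over all probe sets. With a background this low, a count of 0 among 97 is near the share of all probe sets. At an unadjusted p under 0.05, limma gave 6 members higher and 1 lower (7.22%, against 16% of all probe sets), and the unmoderated t gave the same counts and 0 after adjustment. The medians by role were -0.0972 and 0.0514 for small subunit proteins with a bacterial homologue and specific to mitochondria, and -0.0220 and 0.179 for those of the large subunit. In the first set the controls scored -0.375 to 0.648 and the stress rats -0.635 to 1.00, so the groups overlapped widely. Control 2 and stress rat 2 were the highest of their groups, as they were on the bacterial and phage controls (1.43 and 0.591).

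The member nearest to a call under restraint was Mrpl38. Its controls lay at -1.11 to 1.52 and its stress rats at 1.59 to 3.50 residual SDs from the control mean, a difference of 2.59 (limma adjusted p = 0.0826). It was the 1 member of 97 whose groups did not overlap, where 1.78% of all probe sets did not (1.07% higher, 0.715% lower). Beside this, its difference with linalool was -3.20 in the other set, but both differences use the same 6 stress rats, so 1 is not independent of the other.

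Mrpl41, a large subunit protein specific to mitochondria, had the widest log2 difference under restraint. Its controls had a lowest, median and highest log2 signal of 9.84, 9.94 and 10.15, and its stress rats of 9.95, 10.40 and 10.69. Stress rat 6, at 9.95, lay in the range of the controls, and the other 5 lay above all controls. The difference was 0.43 (SE 0.12, limma adjusted p = 0.143), and without stress rat 6 it passed at 3.48 residual SDs (limma adjusted p = 0.0489). With linalool Mrpl41 differed from stress by 0.03 (SE 0.147, limma adjusted p = 0.889).

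The other members with the smallest p under restraint were Mrpl36 at 2.01 residual SDs (limma adjusted p = 0.155) and Mrps9 1373002_at at 1.84 (0.183) above 0. Below 0 they were Mrpl34 at -1.56 (0.235), Mrpl15 at -1.21 (0.327), Mrps21 at -1.20 (0.345) and Mrpl53 at -1.11 (0.362). The genes with known roles in decoding, elongation or rescue were likewise within their spread. Mrps12 differed by -0.303, Mrpl12 by 0.256 and 0.573, Mrpl3 by -0.766, Mrpl58 by -0.356 and Mrps30 by -0.598 residual SDs. The S18 homologues differed by 0.140 for Mrps18a, 0.0446 for Mrps18b and -0.275 to 0.915 for the 3 probe sets of Mrps18c.

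Other genes of mitochondrial translation, and those of mitochondrial transcription and mRNA stability, were measured through 102 probe sets of 79 genes in 5 lists. With linalool 31 of these probe sets (30.4%) were higher and 2 lower. Subunits of the ribosome that are named otherwise had 4 of 5 probe sets higher (median 2.28 residual SDs). Chchd1 of the small subunit rose by 0.16 (SE 0.0275, limma adjusted p = 0.00215) and Gadd45gip1 of the large subunit by 0.18 (SE 0.0454, limma adjusted p = 0.0152). Dap3, a GTP-binding protein of the small subunit, was higher by 2.65 residual SDs (limma adjusted p = 0.00831) and Ptcd3, a pentatricopeptide repeat protein, by 1.99 (0.0306). Aurkaip1 differed by -0.617 (0.465).

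Genes for mitochondrial transcription and mRNA stability had 10 of 20 probe sets higher and none lower (median 1.58 residual SDs). Slirp, which with Lrpprc protects mitochondrial mRNAs, rose by 0.40 in 1373387_at (SE 0.0404, limma adjusted p = 0.000161), though its other probe set differed by -1.24 residual SDs (0.139). Ptcd1 and Pnpt1, both of mitochondrial RNA processing, were higher by 4.27 and 4.02 residual SDs (limma adjusted p = 0.000751 and 0.00116).

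The translation factors had 4 of 19 probe sets higher and 1 lower (median 1.44 residual SDs). Mtfmt, which formylates the initiator tRNA, was higher by 4.06 and Pdf, which removes the formyl group from the new chain, by 3.70 residual SDs (limma adjusted p = 0.000951 and 0.00153). Mtrfr, a factor for stalled ribosomes, was lower in 1394492_at at -4.60 (limma adjusted p = 0.000535) and did not pass in its other probe set, at 1.15.

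The aminoacyl-tRNA synthetases had 9 of 26 probe sets higher and 1 lower (median 0.555 residual SDs). Gars1, which serves cytosol and mitochondria, rose by 0.31 in 1395730_at (SE 0.0293, limma adjusted p = 0.00012) and was higher by 3.54 residual SDs in 1388715_at. Gatc, of the enzyme complex that makes mitochondrial glutaminyl-tRNA, was higher by 5.36 in 1379360_at and lower at -2.30 in 1382866_at.

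Factors of ribosome assembly and rRNA handling had the lowest share, with 4 of 32 probe sets higher and none lower (12.5%, median 0.371), near the 14.2% of the whole array. The GTPase Mtg2 was higher by 5.98 residual SDs (limma adjusted p = 0.000212), Fastkd2, which binds the large rRNA, rose by 0.20 (SE 0.0253, limma adjusted p = 0.0005), and Mettl15, an rRNA methyltransferase, was higher by 2.73 (0.00651). Differences between the lists were not tested. Under restraint no probe set of the 5 lists passed, and the smallest adjusted p was 0.104, of Wars2 at -2.47 residual SDs.

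**Figure D4:**
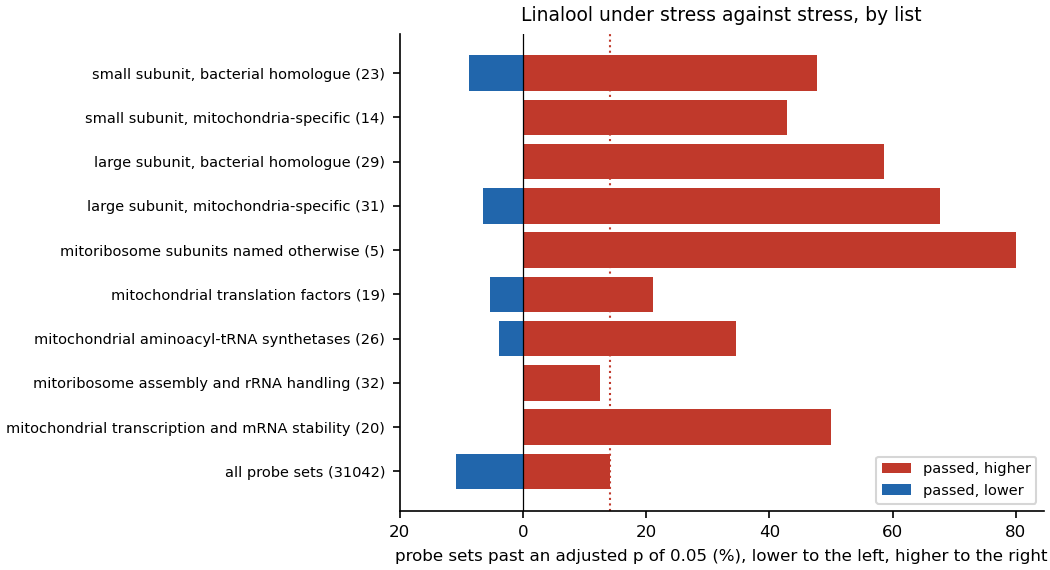
Share of probe sets higher (to the right, in percent) and lower (to the left) with linalool under stress against stress, for the 4 role groups of the members, the 5 other lists and all probe sets. The 4 role groups had 42.9% to 67.7% higher, the other lists 12.5% to 80%, and all probe sets 14.2%.

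The scale of the members differed between the 2 normalisation sets, although the 6 stress rats are the same. In the first set 92 of 97 members were compressed (94.8%, against 83.5% of all probe sets) and in the second 67 (69.1%, against 83.7%). Thus 26 members (26.8%, against 6.11%) were compressed in the first set alone, and of these 25 were higher with linalool and Mrps12 was lower. Of all 1896 probe sets compressed in that set alone, 996 were higher with linalool. The second set holds linalool arrays in place of controls, so this split is not independent of the linalool values. It is a description and adds no support to the calls. Mrpl27 had an SD over the 6 stress rats of 0.000117 when normalised with controls and of 0.0765 when normalised with linalool arrays, while its 6 values correlated between the sets at 0.988. The SD was over 10-fold larger in the second set for 27 members (27.8%, against 6.67%), and the median correlation of the same 6 rats between the sets was 0.974. Only Mrpl48 was compressed in the second set alone, and Mrpl41, Mrps6, Mrps35 and 1 probe set of Mrpl52 in neither.

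**Figure D5:**
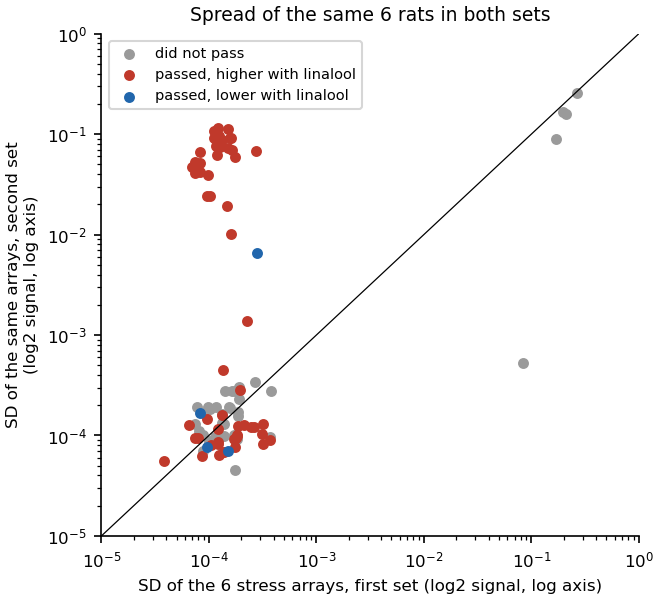
SD of the log2 signal over the same 6 stress rats in the first set (horizontal, log axis) and in the second set (vertical, log axis), 1 point per member probe set. A group of 27 members lies more than 10-fold above the line of equality. Of the 26 members compressed in the first set alone 25 were higher with linalool, where 996 of all 1896 such probe sets were. That split depends on the linalool arrays and is a description.

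Calls with linalool differed by scale. Of the 30 members not compressed in the second set, 25 were higher and 1 lower (83.3% higher, against 28.4% of all such probe sets; median 3.35 residual SDs). Of these 30, 26 were the members compressed in the first set alone. The 4 compressed in neither set did not pass. Of the 67 compressed members, 30 were higher and 3 lower (44.8%, against 11.4%). The scale is read from the same linalool and stress arrays as the calls, so these shares are a description. Of the 25 members higher after quantile normalisation, 22 were not compressed.

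The array's own controls and the cell type markers stood as follows beside these results. Of 45 probe sets for bacterial and phage RNA, which rats do not make, 15 were higher and 4 lower with linalool (limma, adjusted over the 57 array controls), and 0 and 1 with restraint. The 15 higher ones belonged to the dap, lys, phe and thr controls and the 4 lower ones to the bioD and cre controls. The mean deviation of all 45 thus averages controls that moved in opposite directions. With this mean as a covariate, 36 members were higher and 2 lower with linalool, beside 11.4% higher over all probe sets. The part of array handling in the linalool result was not tested further, and the labels name no batch. Of 12 rat control probe sets, 2 were higher and 6 lower with linalool (66.7% called). The higher ones were the 5′ and middle probe sets of beta-actin, which rose by 0.20 and 0.08 (limma adjusted p = 0.000786 and 0.00879). The 3′ probe set of beta-actin did not pass, at -1.10 residual SDs (limma adjusted p = 0.109). The lower ones were 5S rRNA, which fell by 0.39 (limma adjusted p = 0.000786), all 3 of GAPDH, the 5′ one of hexokinase and the one named ratb1. Of 97 probe sets in 9 lists of cell type markers, 7 were higher and 7 lower with linalool, at most 3 in any list, and 0 and 1 with restraint. Over all probe sets 14.2% were higher and 10.8% lower with linalool, and 0.341% and 0.213% with restraint. Meninges and fibroblast markers had a median of -1.40 residual SDs with restraint, and 0 of 20 probe sets passed. Their mean log2 signal ran from 8.00 to 9.91 in controls and from 8.05 to 8.36 in stress rats. Thalamus markers had 0 of 11 higher and 2 lower (scores of -1.01 to 1.53 in stress rats and -1.54 to 0.155 in linalool rats), and neuron markers 1 and 2 of 10 (-0.162 to 0.662 and -0.939 to 0.412). The part of tissue makeup in the members' differences was not tested in either comparison. Of 10 hypothalamic marker genes 9 were measured, with mean log2 signals in controls from 7.43 for Pomc to 11.89 for Pmch, and 11.81 for Avp.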

How the data were processed

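The authors deposited 24 columns of log2 signals per probe set: the first set holds 6 control and 6 stress arrays, and the second the same stress arrays with 6 linalool arrays, per the labels. The log2 scale was read from the values. How probe signals were summarised and normalised is not stated in the labels used here. Biotin-labelled cRNA was made from total RNA, per the labels' protocols. For arrays, depth is not a read count, and the number of arrays limits the precision.

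Of 31099 probe sets, 57 array controls were set apart. Of the other 31042, 20826 have 1 gene symbol in the platform table, 436 several and 9780 none listed. All 97 members matched a RefSeq gene table (GRCr8) by gene identifier, with 0 symbols changed. Promoter windows are RefSeq's. Each comparison was fitted inside its own set with limma 3.58.1 in R 4.3.3 (lmFit, eBayes, two-sided, no filter), adjusted over 31042 probe sets at 0.05. limma's prior degrees of freedom were 0.403 and 0.419, so probe sets of unequal scale borrowed little from each other. The labels describe separate rats. The procedure was tested on simulated data.

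The members, the lists and the markers were chosen with earlier results of these data known. The text names per comparison up to 8 members higher and 8 lower with the smallest p past the threshold, or 4 per direction where none passed. It always names Mrpl12, Mrps12, Mrps18a, Mrps18b, Mrps18c, Mrpl58, Mrps30 and Mrpl3, and for other lists up to 3 past the threshold. Further members named beside these (such as Mrps17, Mrpl50, Mrpl51, Mrpl10 and Mrps35, and Aurkaip1) were picked after their values were seen. Alternatives were quantile normalisation, median centring, 1 probe set or the mean per gene, a filter on low values, an unmoderated t, a trended robust fit, a replicate block and leaving out rats. The bacterial control covariate was added after the data were seen.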

Additional observations from a re-analysis of the deposited data

Results flagged for a closer look

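In the stress group of the second set, Mrpl40 (1374931_at) had 1 rat apart from the others. Stress rat 5 stood at a log2 signal of 8.10, the other 5 between 7.93 and 7.99, and the gap was 0.644 of the group's range, above Dixon's 95% critical value for 6 values. This was 1 of 80 groups examined, and chance alone gives about 1 in 20.

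In data outside the gene comparisons, 15 bacterial and phage array controls were higher and 4 lower in linalool than in stress arrays. These RNAs are not made by rats, and 1 such control passed in stress against control, as lower.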

How the results depend on the processing

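With linalool, 59 members passed (55 higher, 4 lower). The count was 25 after quantile normalisation (8.4% of all probe sets passed), 93 after median centring (93.4%) and 38 with the bacterial control score as a covariate (20%), an alternative chosen after seeing the data. It was 40 (39 higher, 1 lower) with the replicate number as a block and 45 to 64 without 1 rat, where 17.9% and 20.6% to 24.1% of all probe sets passed. One probe set per gene gave 48 of 73 (29.7% of all genes), averaging the probe sets of each gene 46 of 73 (30.8%), the low-signal filter 56 of 85 (37.7% of all probe sets), the unmoderated t 57 (24%) and the trended robust fit 58 (24.2%). The median of 1.86 residual SDs became 0.757 after quantile normalisation and 1.73 to 2.19 without 1 rat. The rescalings shifted the median of all probe sets by 0.00169 and 0.00761 on the log2 scale, small shifts that are large beside the SD of compressed probe sets.

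With restraint, 0 members passed under every alternative except that without stress rat 6, where Mrpl41 did (0 to 1 without 1 rat). The replicate block gave 0. The median of 0.0428 became 1.10 after median centring and 0.969 after quantile normalisation, where the median over all probe sets became 1.10 and 0.877, and ran from -0.135 to 0.226 without 1 rat.

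Of the 19 probe sets tracked by the naming rule with linalool, 5 turned sign in a called value. Mrpl38, Mrpl37 and Mrps2 stood at 1.07, 1.79 and 0.0125 residual SDs after quantile normalisation and at 1.44, 1.38 and 1.46 after median centring. Mrps18c 1382418_at and Mrpl12 1396444_at stood at 1.45 and 1.48 after centring, and their genes at 5.71 and 4.19 as the mean of the probe sets, which the uncompressed ones dominate. Of the other values of named members with linalool, 340 stayed on their side of the threshold and 39 kept direction and lost the call. Why the others changed was not tested.

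Whether rats of the same replicate number shared a step of the work was not settled. Same-numbered deviations correlated at 0.0755 to 0.223 in the first set and -0.105 to 0.182 in the second. In the first set stress rats 1, 5 and 6 matched the control of their own number best. In the second set only linalool rat 2 matched the stress rat of its own number best. The number of arrays and the unknown normalisation limit what can be read from compressed members.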
